A study of Ovis aries with 6 samples.

Results

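The genes described are 10 members of the platelet-derived growth factor (PDGF) system and markers of pericytes, the contractile support cells of small vessels. They were found by gene symbol in the deposited count table: 4 ligands (PDGFA, PDGFB, PDGFC and PDGFD), 2 receptors (PDGFRA and PDGFRB) and 4 pericyte markers (CSPG4, RGS5, KCNJ8 and ABCC9). All 10 were among its 18865 rows, 9 had a count in at least 1 library, and 8 passed the filter on low counts and were tested with 14326 genes in all. The cells were cultured sheep mitral valve endothelial cells (VECs), which line the leaflets of the valve. For 24 h the cultures received sheep plasma, either post-MI (taken after myocardial infarction, 3 libraries) or naive (3 libraries). Whether replicate libraries are separate cultures, cell donors or plasma donors is not stated in the labels, so the spread that p-values measure, between these libraries only, may be technical.

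PDGF ligands are dimers that bind receptor tyrosine kinases. In vessels, endothelial cells release PDGF-B, and pericytes and smooth muscle cells carry PDGFRB and are drawn to the vessel wall by it. PDGFRA is known from fibroblasts and other mesenchymal cells, including interstitial cells of the heart valves. PDGF-A and PDGF-B are cleaved inside the cell, while PDGF-C and PDGF-D are secreted with a CUB domain that proteases remove outside it. Of the pericyte markers, CSPG4 encodes the surface proteoglycan NG2, RGS5 a regulator of G protein signalling, and KCNJ8 and ABCC9 the Kir6.1 and SUR2 subunits of an ATP-sensitive potassium channel.

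Levels are given as CPM, counts per 1000000 counts of a library after TMM scaling, which corrects library totals for composition. Gene lengths were not used, so levels are compared between libraries and not between genes. Total counts were 14858472 to 20672794 per library, and the floor of detection was taken as 3 counts, which is 0.141 to 0.205 CPM. That floor covers counting error only: the reads carry no molecular identifiers and need not be independent molecules. One naive library stood apart from the other 5 on the first principal component of the 500 most variable genes (59.2% of their variance). Naive replicate 1 lay at -52.3, naive replicates 2 and 3 at 4.06 and -0.50, and the post-MI libraries at 12.6 to 18.5. Naive replicate 1 had the highest or the lowest level of 57.9% of all genes tested. Among the 8 tested members it was highest for 2 (PDGFC and PDGFRA) and lowest for 3 (PDGFB, PDGFRB and CSPG4), so each log2 fold change below is also given without it where that turns the direction or moves the value by over 1.5 times.

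The comparison asked whether post-MI plasma changed the expression of PDGF genes and pericyte markers in VECs. No member passed at an adjusted p of 0.05 in edgeR's quasi-likelihood test, and neither did any of the 14326 genes (0%). CSPG4 had the clearest separation, with higher CPM in each post-MI library than in each naive library. PDGFB and PDGFA were higher and PDGFC, PDGFRA, KCNJ8 and ABCC9 were lower in mean with post-MI plasma, each with groups that overlapped. PDGFRB had nearly equal means, PDGFD was close to the floor, and RGS5 had no count in any library.

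**Figure D1:**
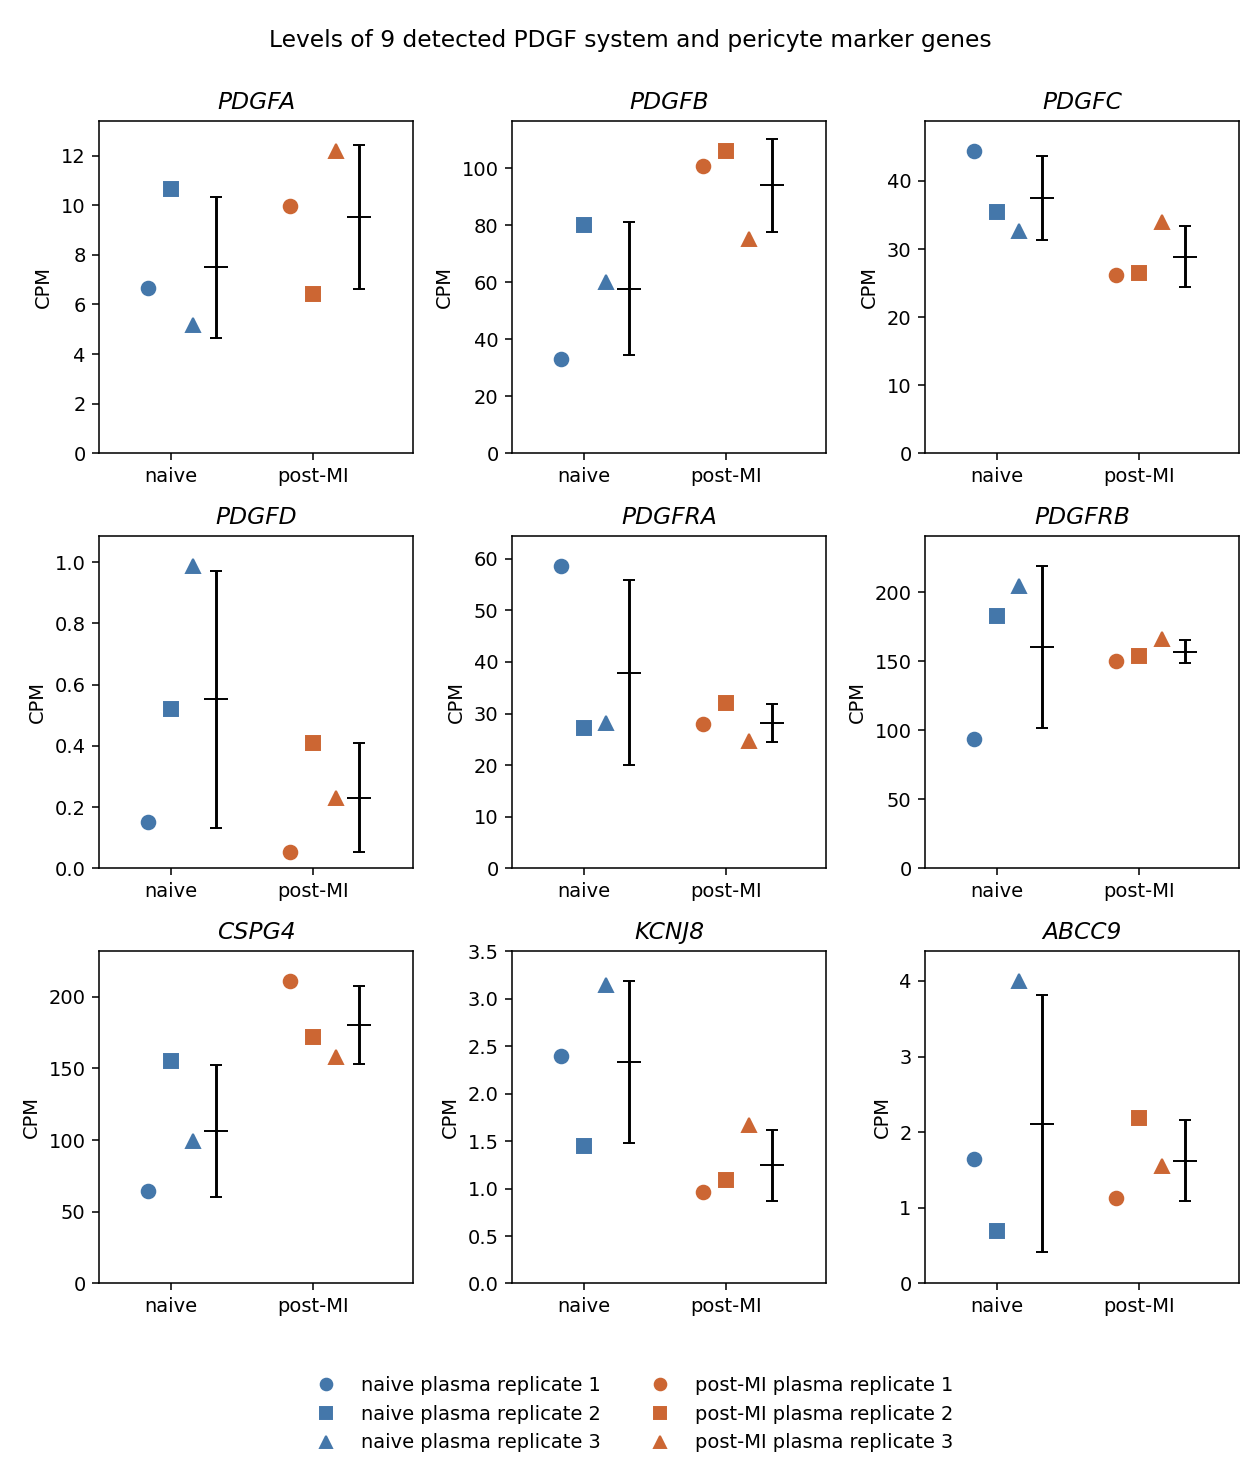
CPM (vertical axis, from 0, a separate scale for each gene) of the 9 members with a count, by plasma group. Each point is 1 library, its shape gives the replicate number, and the black mark with bars is the mean ± SD of 3 libraries. CSPG4 is the only one of the 9 genes with every post-MI point above every naive point, and naive replicate 1 is the lowest point for PDGFB, PDGFRB and CSPG4 and the highest for PDGFC and PDGFRA.

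At an unadjusted p under 0.05, edgeR gave 1 of the 8 tested members (CSPG4), against 8.68% of all genes tested. With 1 library left out this count ran from 0 (without naive replicate 1, post-MI replicate 1 or post-MI replicate 2) to 3 (without naive replicate 2), with 2 when post-MI replicate 3 was left out, and that of all genes from 603 to 1629. CPM did not overlap between the groups for the same 1 member, against 16.1% of all genes tested in either direction and 8.32% in the higher direction. The log2 fold change (post-MI minus naive) was above 0 for 3 of the 8 members and below 0 for 5, and above 0 for 47.9% of all genes. The median log2 fold change was -0.20 over the tested members and -0.01 over all genes. Leaving out naive replicate 1 gave -0.09 over the members, with 4 above and 4 below 0, and 0.00 over all genes. These counts are close to those of the genes at large.

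PDGFB, the ligand through which endothelium recruits mural cells, was at 33.2, 80.02 and 60.2 CPM in naive replicates 1, 2 and 3 and at 101, 106 and 75.4 CPM in post-MI replicates 1, 2 and 3. The groups overlapped through a single pair of libraries, since post-MI replicate 3 lay below naive replicate 2. Means were 57.8 ± 23.5 and 94.1 ± 16.4 CPM (SD, n = 3 each). The log2 fold change was 0.70 ± 0.32 (SE, edgeR adjusted p = 0.566), a 1.63-fold higher level with a 95% interval of 0.973 to 2.72. Without naive replicate 1 it was 0.44, and the other fits with 5 libraries ran from 0.61 to 1.01.

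PDGFA, whose product binds PDGFRA in homodimers, was at 6.66, 10.7 and 5.17 CPM with naive and 9.97, 6.42 and 12.2 CPM with post-MI plasma. The groups were interleaved, with naive replicate 2 above post-MI replicates 1 and 2. The log2 fold change was 0.35 ± 0.34 (SE, edgeR adjusted p = 0.752), with a 95% interval of -0.46 to 1.16. With single libraries left out it ran from 0.14 (without post-MI replicate 3 or naive replicate 3) to 0.69 (without naive replicate 2).

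PDGFC, a ligand released in latent form, was at 44.4, 35.4 and 32.7 CPM with naive and 26.2, 26.4 and 34.0 CPM with post-MI plasma. Post-MI replicate 3 lay above naive replicate 3, and the other post-MI libraries lay below all naive ones. Means were 37.5 ± 6.14 and 28.9 ± 4.45 CPM (SD, n = 3 each), which gave -0.38 ± 0.18 on the log2 scale (SE, edgeR adjusted p = 0.570). The 95% interval was -0.79 to 0.04, the narrowest of the 8 members. Without naive replicate 1 the log2 fold change was -0.23.

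PDGFD, the other latent ligand, had 3, 9 and 21 counts in the naive and 1, 6 and 4 counts in the post-MI libraries. These came to 0.150, 0.521 and 0.987 CPM against 0.0536, 0.410 and 0.231 CPM. Naive replicate 1 was at the floor and post-MI replicate 1 below it, and the groups overlapped. PDGFD did not pass the count filter. Without the filter its log2 fold change was -1.28 ± 0.87 (SE, edgeR adjusted p = 0.696), and no difference was detected.

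Of the receptors, PDGFRB was at 93.8, 183 and 204 CPM with naive and 151, 154 and 166 CPM with post-MI plasma. The post-MI libraries lay close together, between naive replicate 1 below and naive replicates 2 and 3 above. Means were 160.4 ± 58.6 and 157.0 ± 8.33 CPM (SD, n = 3 each), and the spread between libraries was 36.6% of the mean with naive and 5.30% with post-MI plasma. Counting error alone would give 1.79% and 1.94%. The log2 fold change was -0.03 ± 0.28 (SE, edgeR adjusted p = 0.977), with a 95% interval of -0.69 to 0.63, and its sign turned in several fits. It was -0.29 without naive replicate 1 (edgeR adjusted p = 0.622), where the groups no longer overlapped, and 0.00 when post-MI replicate 1 was left out. Leaving out naive replicate 2 or 3 gave 0.08 or 0.18.

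PDGFRA, the receptor typical of mesenchymal cells, was at 58.6, 27.2 and 28.1 CPM with naive and 28.0, 32.0 and 24.7 CPM with post-MI plasma. Naive replicate 1 had 1.83 times the level of the next highest library, and the other 5 libraries were mixed between the groups. Means were 38.0 ± 17.9 and 28.2 ± 3.67 CPM (SD, n = 3 each), which gave -0.43 ± 0.31 on the log2 scale (SE, edgeR adjusted p = 0.671). Without naive replicate 1 it was 0.04, of the opposite sign, and from -0.62 to -0.34 with any other single library left out. The receptors took opposite positions in naive replicate 1: the count ratio of PDGFRB to PDGFRA was 1.60 there and 4.80 to 7.26 in the other 5 libraries.

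CSPG4, the NG2 proteoglycan of pericytes and some progenitor cells, was at 64.4, 155 and 99.5 CPM with naive and 211, 172 and 158 CPM with post-MI plasma. The groups did not overlap, although naive replicate 2 lay only just below post-MI replicate 3. Means were 106 ± 45.9 and 180.3 ± 27.3 CPM (SD, n = 3 each). The log2 fold change was 0.76 ± 0.31 (SE, unadjusted p = 0.0443, edgeR adjusted p = 0.566), a 1.69-fold higher level with a 95% interval of 1.02 to 2.82. Without naive replicate 1 it was 0.51, and without naive replicate 2 it was 1.14 (edgeR adjusted p = 0.323). The unadjusted edgeR p was 0.0041 without naive replicate 2 and 0.0564 to 0.130 in the other fits with 1 library left out.

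KCNJ8 and ABCC9, the subunits of the potassium channel, were low in all libraries. KCNJ8 had 48, 25 and 67 counts with naive and 18, 16 and 29 counts with post-MI plasma, or 2.40, 1.45 and 3.15 against 0.965, 1.09 and 1.67 CPM. Post-MI replicate 3 lay above naive replicate 2, and the other post-MI libraries lay below all naive ones. On the log2 scale the difference was -0.91 ± 0.40 (SE, edgeR adjusted p = 0.566), with a 95% interval of -1.86 to 0.04. With 1 library left out it ran from -1.18 (without post-MI replicate 3) to -0.63 (without naive replicate 3).

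ABCC9 had 33, 12 and 85 counts with naive and 21, 32 and 27 counts with post-MI plasma, or 1.65, 0.695 and 3.99 against 1.13, 2.19 and 1.56 CPM. The naive libraries held both the highest and the lowest level. The spread between them was 80.3% of the mean, against 15.2% from counting error. The log2 fold change was -0.40 ± 0.62 (SE, edgeR adjusted p = 0.853). Leaving out naive replicate 3 gave 0.45. In the RefSeq gene table of another sheep assembly (ARS-UI_Ramb_v3.0) ABCC9 and KCNJ8 are neighbours with no protein-coding gene between them and a long noncoding RNA model that overlaps both. The strand setting of the counting is not given in the sources used here, so reads of these genes and the noncoding RNA may not be told apart.

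RGS5, a widely used pericyte marker, had 0 counts in all 6 libraries. A count of 0 allows up to 0.205 CPM in the shallowest library, post-MI replicate 2, and up to 0.141 CPM in naive replicate 3. The row therefore gives a level below these floors for the sheep gene model that was counted, and no comparison of the groups.

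**Figure D2:**
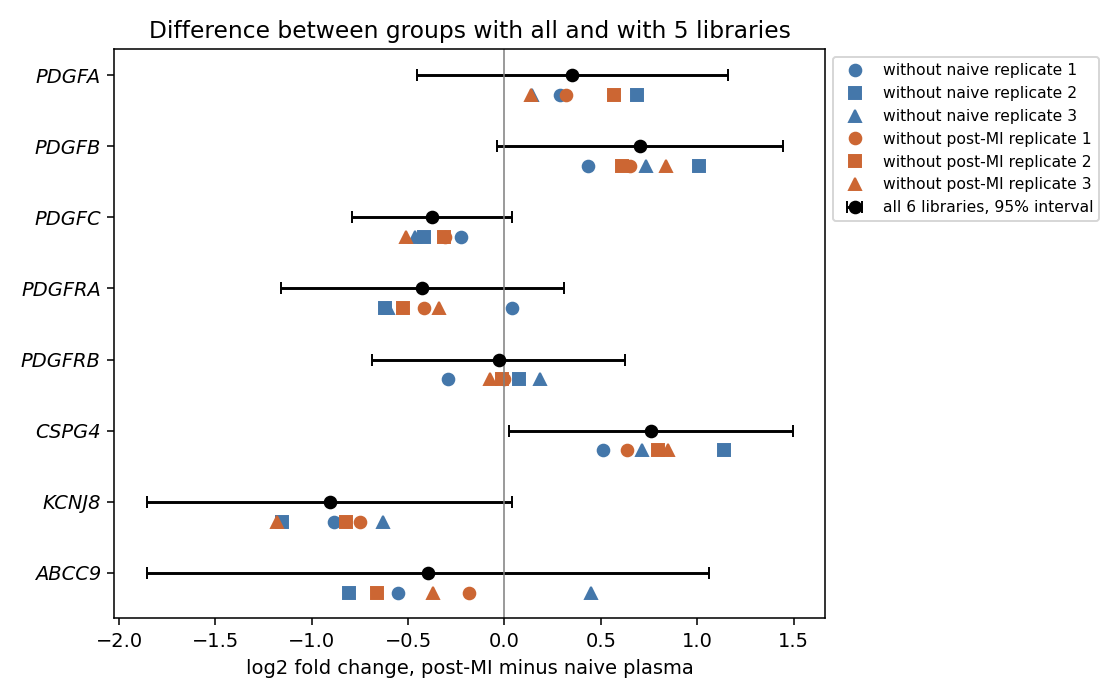
Log2 fold change, post-MI minus naive plasma (horizontal axis), of the 8 tested members. Black points with bars are edgeR estimates from all 6 libraries with 95% intervals, and coloured points just below them are estimates with 1 library left out. Only the CSPG4 interval lies above 0, from 0.03 to 1.496, and PDGFRA, PDGFRB and ABCC9 have estimates on both sides of 0.

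Leaving out a library can only keep or add genes without overlap. There were 2 such members without naive replicate 1 (CSPG4 higher and PDGFRB lower), against 24.8% of all genes tested, 3 without naive replicate 2 (30%) and 2 without naive replicate 3 (28.9%). There were 4 without post-MI replicate 3 (PDGFB and CSPG4 higher, PDGFC and KCNJ8 lower; 32%), and 1 without post-MI replicate 1 (23.5%) or post-MI replicate 2 (19.9%). By DESeq2's Wald test 0 members passed at an adjusted p of 0.05, against 1.56% of all genes, and CSPG4 and PDGFB had unadjusted p of 0.0191 and 0.0337. By limma-voom 0 members and 0% of all genes passed, and the same 2 members had an unadjusted p under 0.05. Of the 14326 genes that passed the filter, 1401 reached that threshold by DESeq2 and 1185 by limma-voom.

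Ratios of counts between members within a library do not depend on how libraries are scaled. Over the 28 pairs of tested members, the ratio did not overlap between the groups for 4, against 16.4% of all pairs of genes tested. These were CSPG4 over PDGFRB, CSPG4 over PDGFC, PDGFB over PDGFRB and PDGFB over PDGFRA. The ratio of CSPG4 to PDGFRB was 0.686, 0.849 and 0.487 with naive and 1.40, 1.12 and 0.949 with post-MI plasma. For PDGFB over PDGFRB it was 0.354, 0.437 and 0.295 against 0.668, 0.689 and 0.453. In both, all post-MI libraries lay above all naive ones, by a small gap between naive replicate 2 and post-MI replicate 3. The members share their libraries, so these pairs are not separate evidence.

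CSPG4 and PDGFB kept almost the same ratio in every library. It was 1.94, 1.94 and 1.65 with naive and 2.09, 1.62 and 2.10 with post-MI plasma. Its highest value was 1.29 times its lowest, the narrowest of the 28 pairs, while CSPG4 itself varied 3.28-fold and PDGFB 3.19-fold over the 6 libraries. The next narrowest pair, PDGFC over PDGFRA, varied 1.82-fold. This pair was picked out after its values were seen and is given as a description.

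**Figure D3:**
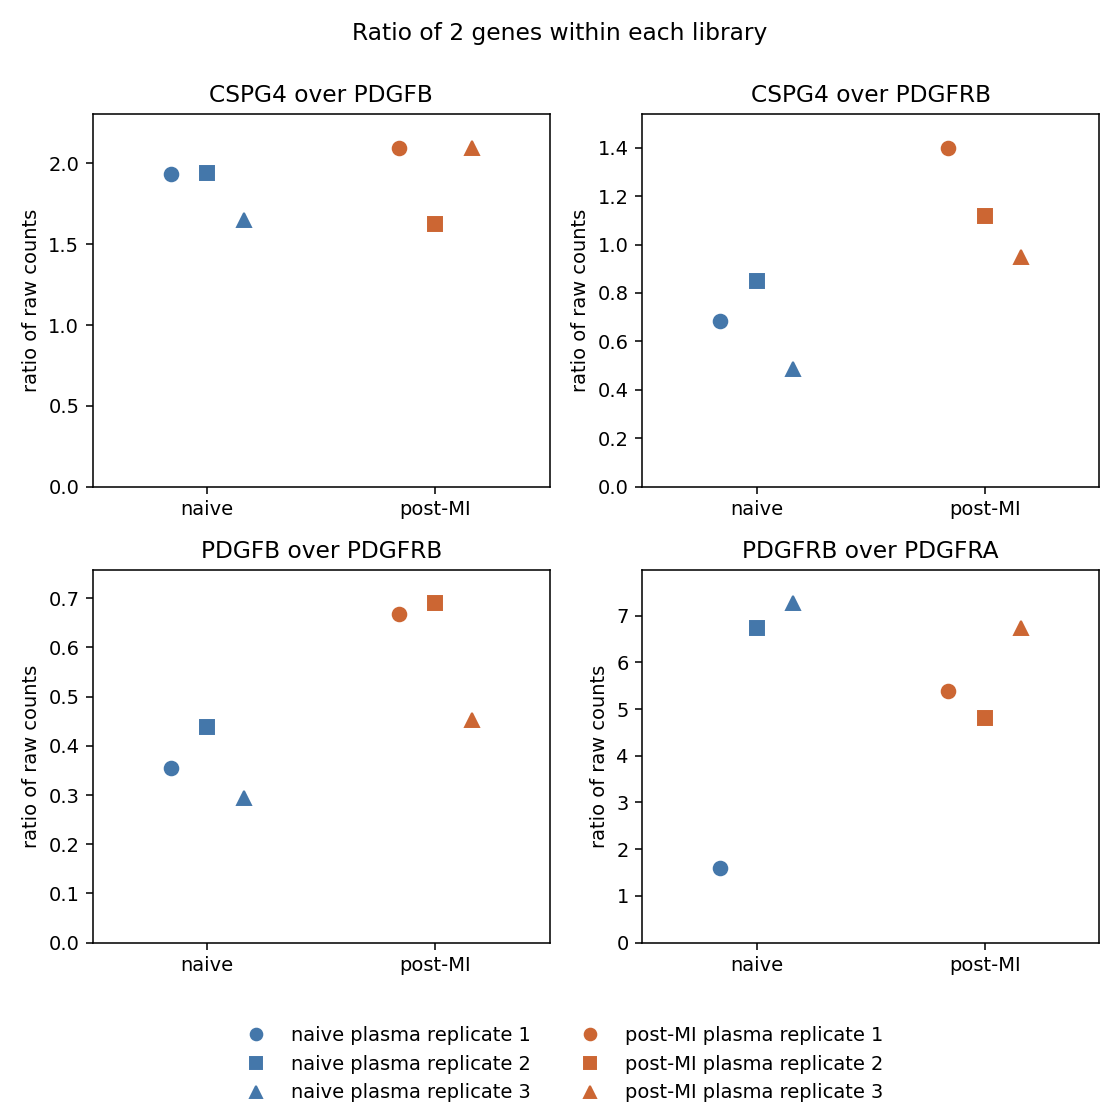
Ratio of raw counts of 2 members within each library (vertical axis, from 0), by plasma group, with 1 point per library. CSPG4 over PDGFB stays between 1.62 and 2.10 in both groups, CSPG4 over PDGFRB and PDGFB over PDGFRB are higher in all post-MI than in all naive libraries, and PDGFRB over PDGFRA is lowest, at 1.60, in naive replicate 1.

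The labelled cell type was checked against defining markers. The endothelial junction genes PECAM1 and CDH5 were at 889 to 1407 and 864 to 1384 CPM over the 6 libraries, while VWF was at 6.58 to 49.8 and KDR at 22.9 to 82.8 CPM. All 11 endothelial markers were tested and 0 passed. Their summed level was 3021 to 3405 CPM with naive and 3155 to 4447 CPM with post-MI plasma, with overlap. On the log2 scale 9 of the 11 lay above 0 (median 0.36), against 47.9% of all genes tested. An unadjusted edgeR p under 0.05 was found for 8.68% of all genes tested and for 4 of the 11, each higher with post-MI plasma. These were ROBO4, a guidance receptor, at 1.30 ± 0.37, CLDN5, a tight junction protein, at 2.27 ± 0.89, VWF at 1.43 ± 0.49 and EGFL7, a secreted endothelial factor, at 0.55 ± 0.21 (SE, log2 fold change). CPM of ROBO4 and CLDN5 did not overlap, as for CSPG4 and for 8.32% of all genes tested in the higher direction. Any part of ROBO4 and CLDN5 in the levels of CSPG4 and PDGFB was not tested. Collagen COL1A1, of fibroblasts and valve interstitial cells, was also abundant at 3172 to 9781 CPM, with LUM at 26.3 to 133 and DCN at 5.71 to 55.8 CPM. In bulk RNA, fewer cells of a type and less RNA per cell cannot be told apart.

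Mural cell markers outside the 10 members were mixed in level and direction. NOTCH3, a receptor of pericytes and smooth muscle, was at 11.9, 47.4 and 42.4 CPM with naive and 30.4, 27.2 and 51.3 CPM with post-MI plasma, with groups that overlapped. MYH11, smooth muscle myosin, was at 9.71, 70.6 and 24.0 CPM with naive and 45.6, 53.9 and 72.3 CPM with post-MI plasma. COX4I2 and HIGD1B, further pericyte markers, were below 1 CPM in all libraries, at 0.200 to 0.820 and 0.273 to 0.611 CPM. Of 12 tested genes in this list 0 passed, 9 lay above 0 and 3 below 0 on the log2 scale, and the median was 0.39. Among all genes tested 47.9% lay above 0. TAGLN, an actin-binding protein of smooth muscle, gave 0.76 ± 0.34 and EDNRA, an endothelin receptor, -2.03 ± 0.82 (SE), both without overlap. That was 1 of the 12 tested genes in each direction, against 8.32% of all genes tested higher and 7.82% lower. TAGLN was separated only just, at 436.6 CPM in post-MI replicate 2 against 435.1 CPM in naive replicate 2. EDNRA was near the floor with post-MI plasma, at 0.0536, 0.683 and 0.289 CPM. ACTA2, smooth muscle actin, gave 1.001 ± 0.59 and LMOD1, an actin filament protein, 0.91 ± 0.45 (SE), both with overlap. Without naive replicate 1, TAGLN gave 0.48, ACTA2 0.57 and EDNRA -1.28, and the median of the list was 0.19.

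Markers of smooth muscle did not all follow CSPG4 over the libraries. The summed level of 6 markers (MYH11, ACTA2, TAGLN, CNN1, LMOD1 and SMTN) was 926, 4915 and 2447 CPM with naive and 5573, 4432 and 6108 CPM with post-MI plasma, most of it ACTA2, at 643 to 5330 CPM. The lowest sum was in naive replicate 1 and the highest in post-MI replicate 3, which had the lowest CSPG4 level of its group. The groups of sums overlapped, since post-MI replicate 2 lay below naive replicate 2. Among the naive libraries the sum, MYH11, ACTA2, TAGLN and LMOD1 were lowest in replicate 1 and highest in replicate 2, as CSPG4 and PDGFB were. SMTN and CNN1 differed. SMTN was highest in naive replicate 1 (86.2 CPM against 30.8 to 71.2 CPM in the other libraries), and CNN1 was lowest in naive replicate 3 (8.46 CPM). The order shared with CSPG4 and PDGFB was not confined to smooth muscle markers. In naive replicates 1, 2 and 3 the endothelial marker EMCN had it, at 149, 448 and 311 CPM. PECAM1 did not, at 1153, 889 and 1289 CPM. Naive replicate 1 was the lowest of the 6 libraries for 29.2% of all genes tested. Of the 6 smooth muscle markers 0 passed and 5 lay above 0 on the log2 scale (median 0.84), against 47.9% of all genes tested. All of them but SMTN are also among the mural cell markers counted above, so these counts are not separate evidence. Without naive replicate 1, 6 lay above 0 (median 0.52). DES, another smooth muscle marker of the list, had no row under that symbol in the count table. The 10 fibroblast and valve interstitial markers, PDGFRA among them, were also summed. Their sum was 8035, 19790 and 16694 CPM with naive and 13522, 15599 and 18181 CPM with post-MI plasma. Most of it came from collagen genes, COL1A1 among them. The sum was lowest in naive replicate 1, where PDGFRA was highest. DDR2, of the same list, was also highest there (126 CPM against 71.4 to 112 CPM in the other libraries). The part of these cell types in the levels of the members was not tested.

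**Figure D4:**
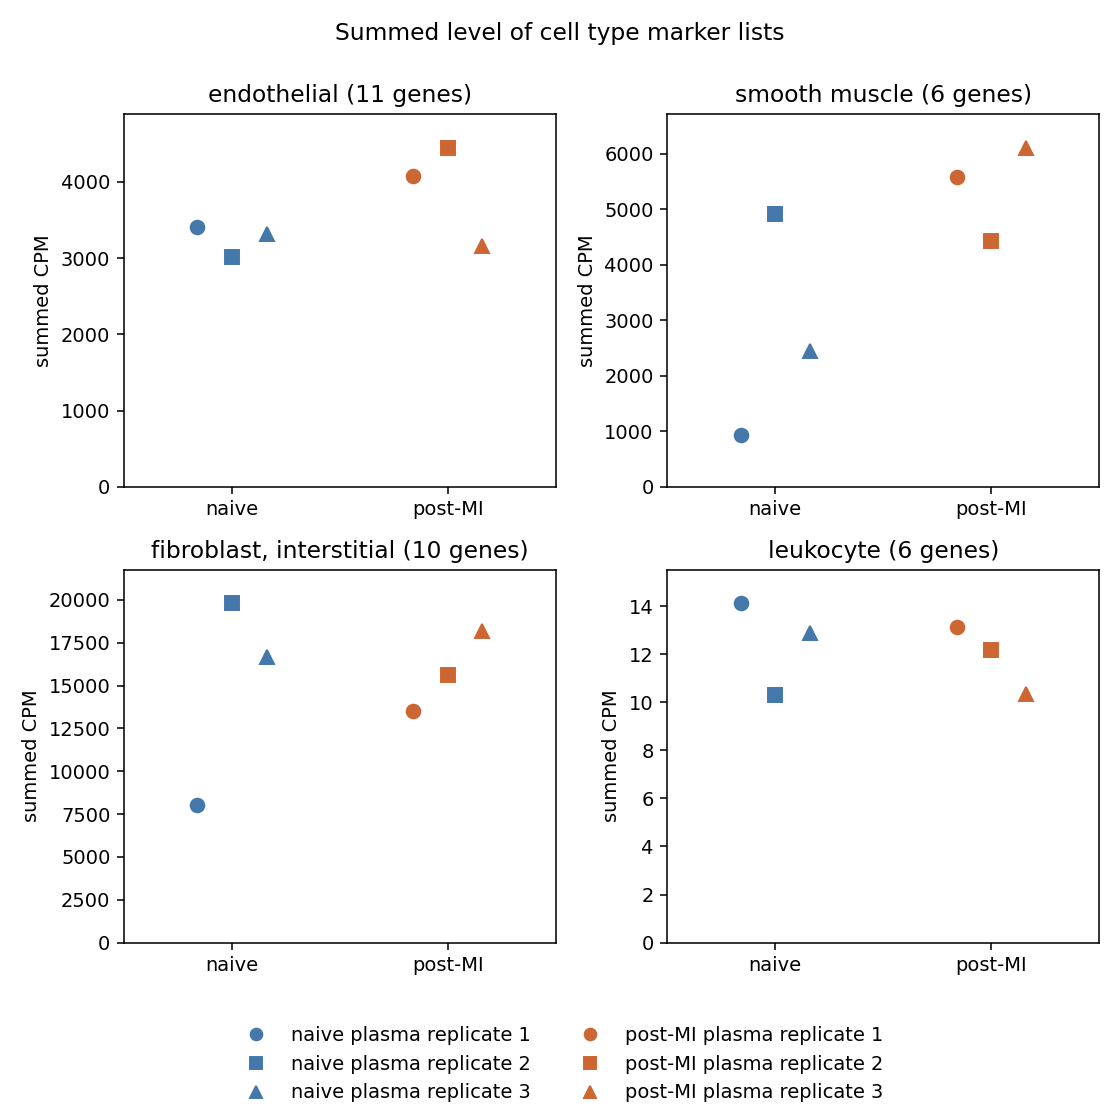
Summed CPM (vertical axis, from 0) of cell type marker lists by plasma group, with 1 point per library. The smooth muscle sum, most of it ACTA2, is lowest in naive replicate 1 (926 CPM) and overlaps between the groups, and the leukocyte sum stays between 10.3 and 14.1 CPM in all libraries.

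Markers of blood cells were low. The 6 leukocyte markers summed to 10.3 to 14.1 CPM with naive and 10.3 to 13.1 CPM with post-MI plasma, most of it CD68, and PTPRC (CD45) was at 0.141 to 0.347 and 0.643 to 1.33 CPM. Of the red cell and platelet markers, ALAS2 and PPBP had 0 counts in all libraries, and ITGA2B, the platelet integrin, was at 4.98 to 5.36 CPM with naive and 3.46 to 5.90 CPM with post-MI plasma. HBB, PF4 and GP9 had no rows under those symbols in the count table.

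Proteins that process PDGF ligands or help their receptors gave 0 calls among 7 tested genes, with 3 positive and 4 negative log2 fold changes (median -0.12). PLAT, tissue plasminogen activator, which removes the CUB domain of PDGF-C, was at 58.8, 41.5 and 55.9 CPM with naive and 21.6, 26.2 and 48.6 CPM with post-MI plasma. Like PDGFC, it was lower in post-MI replicates 1 and 2 than in all naive libraries and overlapped through post-MI replicate 3. Its log2 fold change was -0.70 ± 0.31 (SE, edgeR adjusted p = 0.566). LRP1, a co-receptor of PDGFRB, gave -0.35 ± 0.23, NRP1, a co-receptor for several growth factors, 0.38 ± 0.33, and FURIN, a protease that cleaves PDGF-A and PDGF-B in the cell, -0.12 ± 0.14 (SE). SPARC, a matrix protein that can bind PDGF, gave 0.56 ± 0.43 (SE). Leaving out naive replicate 1 brought LRP1 to -0.23, NRP1 to 0.09 and SPARC to 0.19. ST14, a protease that can act on PDGF-D, had 0 counts in all libraries. PLAU, another protease of this list, was detected at 14.1 to 56.7 CPM over the libraries, with a log2 fold change of 0.001 ± 0.49 (SE).

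Components that carry the signal from PDGF receptors gave 0 calls among 13 tested genes, with 2 positive and 11 negative log2 fold changes (median -0.09). These became 4 and 9 without naive replicate 1, while 47.9% of all genes tested lay above 0 with all 6 libraries. CPM did not overlap, lower with post-MI plasma, for 3 of them, against 7.82% of all genes tested in that direction. The kinase SRC was at 38.4, 31.8 and 30.03 CPM with naive and 20.3, 26.3 and 28.1 CPM with post-MI plasma, or -0.42 ± 0.17 on the log2 scale (SE, edgeR adjusted p = 0.566). RASA1, a Ras GTPase-activating protein, gave -0.31 ± 0.14 and PIK3CA, a catalytic subunit of PI3 kinase, -0.25 ± 0.13 (SE). GAB1, an adaptor, gave 0.41 ± 0.25 (SE) with groups that overlapped.

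Other genes through which endothelium and mural cells signal to each other gave 0 calls among 11 tested, with 9 positive and 2 negative log2 fold changes (median 0.36). The positive share among all genes tested was 47.9%. TEK and TIE1 of this list are also among the endothelial markers counted above, so these counts are not separate evidence. EDN1, which encodes endothelin-1, was at 83.2, 377 and 243 CPM with naive and 423, 425 and 406 CPM with post-MI plasma, without overlap and with naive replicate 1 lowest, as for PDGFB. It was the only 1 of the 11 without overlap, against 8.32% of all genes tested in the higher direction. Its log2 fold change was 0.83 ± 0.47 (SE, edgeR adjusted p = 0.606). Leaving out naive replicate 1 gave 0.44. The Notch ligands DLL4 and JAG1 gave 1.23 ± 0.55 and 0.50 ± 0.26, and the receptor TIE1 gave 0.36 ± 0.17 (SE), each with overlap. DLL4 was low, at 1.08 to 1.25 CPM with naive and 0.866 to 4.07 CPM with post-MI plasma.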

How the data were processed

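Stranded mRNA libraries of 6 samples were read as paired ends of 150 bp, per the labels' protocols. The submitters' processing notes name the build Oar_v3.1 and, among the authors' tools, featureCounts 2.0.0, STAR 2.5.2b, DESeq2 1.26.0 and SAMtools 1.9. The annotation is not given in the sources used here. Raw counts per gene symbol make up the deposited table. The deposited per-sample files hold a normalised signal equal to these counts divided by 1 factor per library (100% of non-zero counts within 0.01%), so the counts were used.

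In R 4.3.3, genes were kept by filterByExpr of edgeR 4.0.16 (minimum count 10, minimum total 15), scaled by TMM and compared by edgeR's quasi-likelihood test over all 6 libraries with Benjamini-Hochberg adjustment over 14326 genes. Each SE is the size of the log2 fold change divided by the square root of F. The tests were tried on simulated data. Alternatives were DESeq2 1.42.0, limma-voom (limma 3.58.1), other scalings and filters, a replicate block and fits without each library. The members and lists were chosen with earlier results of these data known. Named genes were the 10 members, defining cell type markers and up to 4 genes per list with the smallest p. FURIN, PLAU, ST14, TEK, EMCN, HIGD1B, SMTN, ALAS2 and PPBP were named after their values were seen. All 10 members were found in the RefSeq table, which was used for names and neighbours. No 2 libraries of the same group agreed within sampling noise.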

Additional observations from a re-analysis of the deposited data

How the results depend on the processing

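In all 13 alternatives 0 members passed, and the number of genes called among all genes was 0 in each edgeR and limma-voom fit, with any 1 library left out included (0 to 0), and 218 by DESeq2 (152 higher, 66 lower). At an unadjusted p under 0.05, edgeR gave 1244 genes with all libraries, limma-voom 1185 and DESeq2 1401. The members gave 104 estimates under alternatives, of which 97 kept their direction and 7 did not. PDGFRB gave 0.045 by limma-voom, 0.043 with the replicate block and -0.29 to 0.18 with single libraries left out, PDGFRA -0.62 to 0.039 (without naive replicate 1) and ABCC9 -0.81 to 0.45; the cause was not tested. Deviations of same-numbered libraries from their group means correlated across genes at 0.15, -0.11 and 0.09 for numbers 1, 2 and 3. Different-numbered libraries gave -0.31 to 0.24. With 3 libraries per group the deviations sum to 0, so this check cannot settle whether the numbers mark pairs. The labels do not say that they do, so the main fit had no block. With the block edgeR called 0 genes, 0 of them members. CSPG4 had an unadjusted edgeR p of 0.0507 with the block, PDGFB 0.0482 and KCNJ8 0.0467. With the block 2 members were thus under 0.05, against 1 in the main fit, and 1168 of the 14326 genes were. For KCNJ8, ABCC9 and PDGFD counting error alone comes to 14.6%, 15.2% and 30.2% of the naive mean, and the spread between naive libraries to 36.5%, 80.3% and 75.9%.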
